A study of Mus musculus with 8 samples.

Results

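The genes examined here are the 6 Ly6 surface protein genes Ly6e, Ly6a, Ly6c1, Ly6c2, Ly6d and Ly6k, measured in mouse naive CD8+ T cells that were cultured for 24 h with RGX-104 at 2 µM or with DMSO. RGX-104 is a synthetic compound that activates the liver X receptors (LXR), and DMSO is the vehicle. They were taken by gene symbol from a table of 41730 gene rows, and all 6 had a row. The family was chosen by the measured rise of Ly6e, which was among the 11 genes called between the groups out of 10037 tested (0.11%), and the question was whether the other Ly6 genes of T cells share that rise. The change of Ly6e is therefore given as a description, without a test. Each group held 4 libraries of 3' end mRNA sequencing, RGX-104 replicates 5 to 8 and DMSO replicates 1 to 4. All cells were naive CD8+ T cells isolated with a magnetic kit (MojoSort), and the labels name neither strain, sex, age nor any genetic change. The labels do not say whether each library had its own animal or culture. The p-values therefore describe the spread among these libraries, which may be technical.

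Ly6 proteins are small surface proteins built on a compact fold of finger-like loops held by disulphide bonds, and most are tied to the outer face of the plasma membrane by a glycosylphosphatidylinositol (GPI) lipid anchor. In mice many of their genes lie side by side in a cluster on chromosome 15. Several are well known as lymphocyte antigens: Ly-6A, also called stem cell antigen Sca, is increased on activated T cells, and Ly-6C marks memory CD8 T cells and inflammatory monocytes. Ly6e and Ly6a are known interferon-induced genes. LXR are sterol-sensing nuclear receptors, best known for inducing cholesterol efflux transporters and lipogenic enzymes.

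The 6 genes lie on chromosome 15 of GRCm38.p6, all annotated as protein-coding. In order along the chromosome they are Ly6d at 74762056 to 74763567, Ly6k at 74796874 to 74799968, Ly6e at 74955025 to 74959904, Ly6a at 74994877 to 74998031, Ly6c1 at 75044018 to 75048920 and Ly6c2 at 75108161 to 75112066. Ly6e is on the plus strand and the other 5 are on the minus strand. The ends of 4 coding sequences are shown because the tail of a Ly6 coding sequence encodes the hydrophobic stretch that is exchanged for the GPI anchor, and because they show how far the count rows of the family can be told apart. Each is the last 120 bases of the first-numbered GENCODE M21 transcript on GRCm38, and capitals mark the stop codon in Ly6e and Ly6a.
Ly6e: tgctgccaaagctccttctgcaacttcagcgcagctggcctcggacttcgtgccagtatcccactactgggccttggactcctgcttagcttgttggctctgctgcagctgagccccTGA
Ly6a: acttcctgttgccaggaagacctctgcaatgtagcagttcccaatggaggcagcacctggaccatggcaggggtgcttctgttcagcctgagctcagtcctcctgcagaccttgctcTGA

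The Ly6c pair is shown in the same way, and here capitals mark the 2 bases at which the tails differ.
Ly6c1: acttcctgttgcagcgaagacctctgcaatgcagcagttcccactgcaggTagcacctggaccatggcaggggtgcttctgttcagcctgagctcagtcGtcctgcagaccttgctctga
Ly6c2: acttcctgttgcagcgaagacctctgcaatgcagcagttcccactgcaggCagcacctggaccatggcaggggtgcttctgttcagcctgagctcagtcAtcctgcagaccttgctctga

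Over the whole coding sequence Ly6c1 and Ly6c2 were 97.7% identical, and Ly6a was 82.0% identical to Ly6c1 and 81.7% to Ly6c2. Ly6e was 49.0% to 53.2% identical to the other 5. In the final 300 bases of the transcript, where 3' end reads fall, 29.9% of all stretches of 50 bases in Ly6c2 also occurred in Ly6c1, and the same share of Ly6c1 occurred in Ly6c2. No such stretch of Ly6e, Ly6a, Ly6d or Ly6k occurred in a transcript of another gene. Reads shared by Ly6c1 and Ly6c2 may have been split or dropped in counting, so the values of that pair are uncertain to that extent.

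Library totals were 16196217 to 28287445 counts with RGX-104 and 16308726 to 24353797 with DMSO. At least 1 count was found for 10442 to 10990 genes in the RGX-104 libraries and for 9772 to 10908 in the DMSO libraries, where replicates 1 to 3 had the fewest, 9772 to 10194. The zeros among low genes were more frequent than independent reads would give. An estimate of apparent molecules from these zeros put 1 molecule at 2.90 to 3.99 CPM in the RGX-104 libraries and at 3.16 to 5.48 CPM in the DMSO libraries. CPM is the count of a gene scaled to a library of 1e+06 counts. Reads come from the transcript's 3' end, so CPM was not divided by transcript length, and levels of different genes are compared on this 3' end scale.

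Ly6e, an interferon-induced antigen of thymocytes and peripheral lymphocytes, was the dominant member of the family in these cells. Its level was 1003, 1086, 1059.6 and 888 CPM in RGX-104 replicates 5 to 8, against 615, 654, 629 and 667 CPM in DMSO replicates 1 to 4. Every RGX-104 library lay above every DMSO library, with RGX-104 replicate 8 the closest to the DMSO range. The means were 1009 ± 88.0 CPM with RGX-104 and 641 ± 23.4 CPM with DMSO (SD, n = 4 each), a ratio of 1.57. The log2 fold change in the fit over all genes was 0.64 ± 0.11 (SE, edgeR). Among the 10 genes called higher this was the smallest fold change. In rank of counts Ly6e stood between the 96th and the 115th gene of a library with RGX-104 and between the 151st and the 167th with DMSO. In bulk RNA of this kind, more cells that express a gene and more RNA per cell cannot be told apart.

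**Figure D1:**
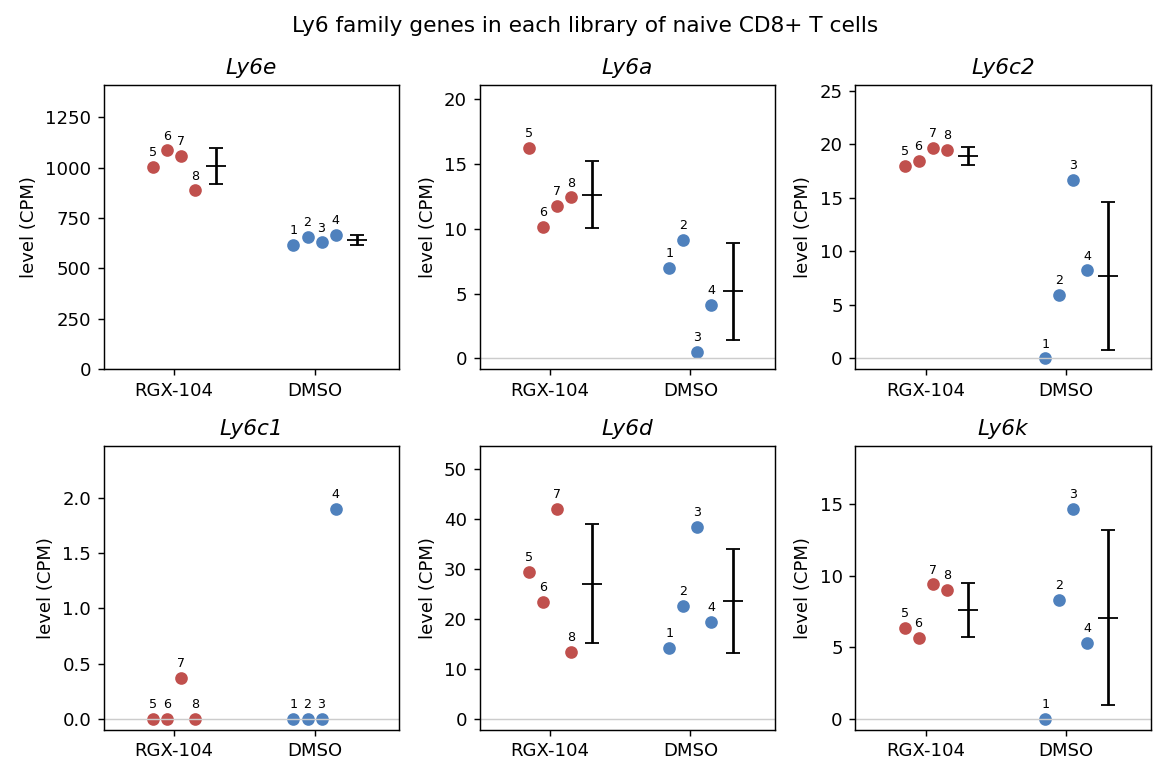
Level of each of the 6 Ly6 genes in every library, in CPM on a linear axis whose range differs between panels, with RGX-104 libraries left and DMSO libraries right. Points are single libraries labelled by replicate number, and bars beside them are the mean ± SD of 4 libraries, left out for Ly6c1, which had counts in 2 libraries. Ly6e, Ly6a and Ly6c2 do not overlap between the groups, with Ly6e at 888 to 1086 CPM against 615 to 667 CPM.

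Ly6a, the stem cell antigen Sca that activated T cells carry, was present in all 8 libraries at a small part of the Ly6e level. It had 459, 217, 190 and 209 reads in RGX-104 replicates 5 to 8, against 136, 170, 12 and 67 reads in DMSO replicates 1 to 4. Scaled to the library totals these were 16.2, 10.2, 11.7 and 12.4 CPM with RGX-104 and 6.99, 9.14, 0.493 and 4.11 CPM with DMSO. The groups did not overlap, but RGX-104 replicate 6 and DMSO replicate 2 were only 1 CPM apart. The means were 12.6 ± 2.57 CPM with RGX-104 and 5.18 ± 3.75 CPM with DMSO, a ratio of 2.44. Ly6a did not pass the test over all genes (log2 fold change 1.27 ± 1.15 SE, edgeR adjusted p = 1.00). By the estimate of apparent molecules, Ly6a came to 2.97 to 4.27 in a library with RGX-104 and 0.104 to 1.67 with DMSO. The estimate takes the same reads per molecule for all genes and is rough at this level. In DMSO replicate 3 the 12 reads of Ly6a stood beside 115 reads per apparent molecule, and a value below 1 is no true number of molecules.

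Ly6c2, which encodes the Ly-6C antigen of memory CD8 T cells and monocytes, was the other low member whose groups did not overlap. Its counts were 508, 394, 318 and 328 reads in RGX-104 replicates 5 to 8, against 0, 110, 405 and 134 reads in DMSO replicates 1 to 4. In CPM the RGX-104 libraries were close together at 18.0, 18.5, 19.6 and 19.5, and the DMSO libraries were spread out at 0, 5.92, 16.6 and 8.22. The gap between RGX-104 replicate 5 and DMSO replicate 3 was small beside the spread among the DMSO libraries. The means were 18.9 ± 0.805 CPM with RGX-104 and 7.69 ± 6.89 CPM with DMSO, a ratio of 2.46. Ly6c2 did not pass (log2 fold change 1.28 ± 1.09 SE, edgeR adjusted p = 1.00), with 4.50 to 6.71 apparent molecules in a library with RGX-104 and 0 to 3.52 with DMSO.

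Ly6c1, the near-identical partner of Ly6c2, was almost without reads and was too low to test. It had 6 reads in RGX-104 replicate 7 and 0 in the other RGX-104 libraries, against 31 reads in DMSO replicate 4 and 0 in the other DMSO libraries. The count of 0 allows up to 0.106 to 0.178 CPM in RGX-104 replicates 5, 6 and 8 and up to 0.123 to 0.161 CPM in DMSO replicates 1 to 3, counting error of independent reads only. Since 1 apparent molecule is worth more than that, a transcript above these limits could have been missed. With the counts of Ly6c1 and Ly6c2 added into 1 gene before the fit, the log2 fold change of the pair was 1.20 (edgeR adjusted p = 1.00).

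Ly6d, an antigen of B-lineage cells and thymocytes, was second in level after Ly6e, at 29.3, 23.3, 42.0 and 13.5 CPM in RGX-104 replicates 5 to 8 and 14.2, 22.5, 38.4 and 19.4 CPM in DMSO replicates 1 to 4. The groups overlapped, with the highest and the lowest library both in RGX-104. The means were 27.0 ± 11.9 CPM with RGX-104 and 23.6 ± 10.4 CPM with DMSO (log2 fold change 0.18 ± 0.51 SE, edgeR adjusted p = 1.00). The sign of this change was negative without DMSO replicate 1 or without RGX-104 replicate 7. As Ly6d is a B-lineage gene, the sum of 10 B cell markers is set beside it: 129, 117, 205 and 153 CPM in RGX-104 replicates 5 to 8 and 149, 50.6, 229 and 151 CPM in DMSO replicates 1 to 4. RGX-104 replicate 7 and DMSO replicate 3 had the most Ly6d in their group and also the largest B cell sum. Below these top libraries, the order by Ly6d differed from the order by B cell sum in both groups. RGX-104 replicate 8 had the least Ly6d of its group, 13.5 CPM, with a B cell sum of 153 CPM, below only replicate 7. DMSO replicate 2, with 22.5 CPM of Ly6d, was below only replicate 3 but had the smallest B cell sum, 50.6 CPM. The part of B cells in the Ly6d level was not tested.

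Ly6k, known in mice from testis and sperm, had 6.36, 5.67, 9.38 and 9.03 CPM in RGX-104 replicates 5 to 8 and 0, 8.28, 14.7 and 5.33 CPM in DMSO replicates 1 to 4. The RGX-104 libraries fell inside the range of the DMSO libraries. The means were 7.61 ± 1.87 CPM with RGX-104 and 7.07 ± 6.11 CPM with DMSO (log2 fold change 0.10 ± 1.46 SE, edgeR adjusted p = 1.00). With an error of this size neither a clear rise nor a clear fall could have been seen. The sign turned negative when DMSO replicate 1 or 4 or RGX-104 replicate 7 was left out, and limma-voom gave 1.73.

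Of the 6 members, 5 passed the filter on low counts and Ly6c1 did not. None of the 4 tested members beside Ly6e was called by edgeR, and none had an unadjusted p under 0.05, where 0.0996% of all 10037 tested genes were called higher, 0.00996% were called lower and 3.81% had such a p. DESeq2 and limma-voom called 0 of the 4 as well. The fitted changes of these 4 were above 0, as were those of 50.9% of all tested genes, and the signs of Ly6d and Ly6k depended on single libraries. Groups did not overlap for Ly6a and Ly6c2 among these 4, against 2.2% of all tested genes with every RGX-104 library higher and 1.46% of the 2747 tested genes with a mean of 5 to 20 CPM. Their errors on the log2 scale, 1.15 and 1.09, were close to the size of the changes, so these data neither show that Ly6a and Ly6c2 follow Ly6e nor that they do not.

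**Figure D2:**
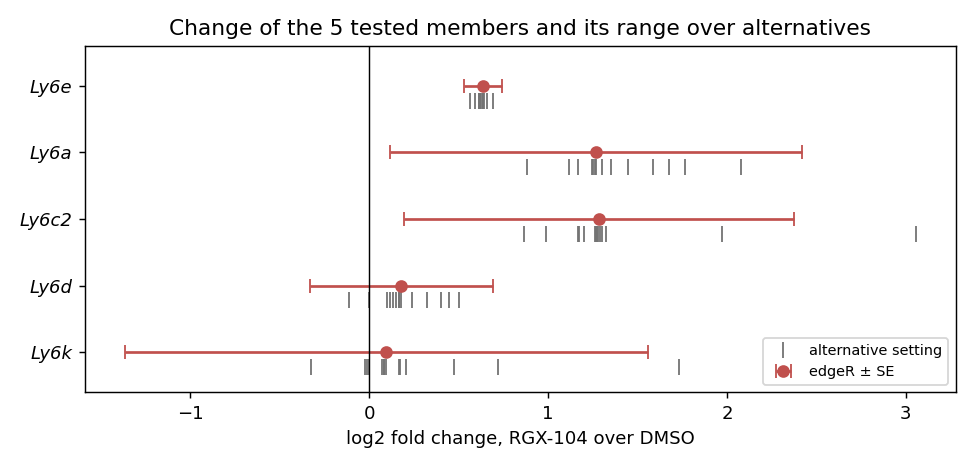
Log2 fold change of RGX-104 over DMSO for the 5 tested members, with points and bars for the edgeR estimate ± SE and grey ticks for the same value under each alternative setting. Ly6e stays between 0.56 and 0.69, Ly6a and Ly6c2 stay above 0 with wide errors, and the ticks of Ly6d and Ly6k fall on both sides of 0.

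The size of the change was also compared within libraries, as the log2 ratio of Ly6e to each other member, with 1 CPM added to both levels. For members near 0 the ratio rests on that added value, as for Ly6c2 and Ly6k in DMSO replicate 1, where both were at 0 and both ratios were 9.27. The ratio to Ly6a was 6.23 ± 0.33 with RGX-104 and 7.01 ± 1.22 with DMSO, and the ratio to Ly6c2 was 5.66 ± 0.16 with RGX-104 and 6.79 ± 1.75 with DMSO (log2 of CPM + 1, SD, n = 4 each). Both ratios were thus lower on average with RGX-104, by 0.78 and by 1.13, less than the SD of the DMSO libraries. The ratio to Ly6d was 5.27 ± 0.57 with RGX-104 and 4.79 ± 0.57 with DMSO, and the ratio to Ly6k was 6.90 ± 0.40 with RGX-104 and 6.86 ± 1.70 with DMSO. No test was made of these ratios, because Ly6e had been chosen for its rise. Ly6e made up 93.9% ± 0.96 of the summed counts of the 6 genes with RGX-104 and 93.6% ± 2.79 with DMSO. The other 5 genes together stood at 66.3 ± 13.1 CPM with RGX-104 and 44.1 ± 20.3 CPM with DMSO, with overlap between the groups.

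By level the order was Ly6e, Ly6d, Ly6c2, Ly6a, Ly6k and Ly6c1 in the RGX-104 libraries, and Ly6e, Ly6d, Ly6c2, Ly6k, Ly6a and Ly6c1 in the DMSO libraries. Ly6e stood apart from all others in every library. With RGX-104 the ranges of Ly6d and Ly6c2 overlapped, Ly6c2 lay above Ly6a in all libraries and Ly6a lay above Ly6k in all libraries. With DMSO the ranges of Ly6d, Ly6c2, Ly6k and Ly6a all overlapped with their neighbour in the order.

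Few reads were counted for the rest of the Ly6 and uPAR family. Of 37 other listed genes of the family 31 had no count in any library, among them Ly6g, the neutrophil antigen, and Psca, an antigen of prostate and other epithelia. Ly6g6g and Ly6a2, which the list does not hold, were also at 0. A gene at 0 in this table is not shown to be unexpressed, since the T cell genes Cd2 and Cd28 were at 0 as well. Cd2, Cd28 and 6 of the listed family genes have further rows under a numbered symbol, also at 0, and of 1729 genes with such rows 327 had a count in any of them. None of the 6 members has a further row. Of 3 that could be tested, 0 were called by edgeR, DESeq2 or limma-voom, where edgeR called 0.11% of all tested genes. An unadjusted edgeR p under 0.05 was found for 0 of the 3, against 3.81% of all tested genes. The fitted changes of all 3 were above 0, with a median of 0.91, where 50.9% of all tested genes had a positive change. Lypd6b, which in human cells acts on nicotinic acetylcholine receptors, had a mean of 10.5 ± 6.27 CPM with RGX-104 and 5.51 ± 3.88 CPM with DMSO (log2 fold change 0.91 ± 1.25 SE, edgeR adjusted p = 1.00). The other tested genes, named after their values were seen, were Lynx1, a modulator of the same receptors, at 5.19 ± 7.59 CPM with RGX-104 and 3.69 ± 3.76 CPM with DMSO, and Plaur, the urokinase receptor, at 5.89 ± 3.47 CPM with RGX-104 and 1.84 ± 2.39 CPM with DMSO. The RGX-104 and DMSO libraries overlapped for all 3.

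In a window that reached 500 kb to either side of Ly6e, 40 annotated genes with a row lay wholly or in part, Ly6e included, and 13 of these had a count in any library. Distances were taken between the lower coordinates of the genes. Tested were 8: Ly6e, Ly6a, Ly6c2, Ly6d, Ly6k, Lynx1 and 2 genes outside the family. Them6, a thioesterase-like gene at -233.8 kb from Ly6e, had 35.5 ± 2.88 CPM with RGX-104 and 43.8 ± 14.9 CPM with DMSO (log2 fold change -0.32 ± 0.37 SE). The noncoding RNA Gm39556, at -28.5 kb from Ly6e, had 8.27 ± 7.26 CPM with RGX-104 and 2.08 ± 4.09 CPM with DMSO (1.95 ± 2.14). Neither was called (edgeR adjusted p = 1.00), and the groups overlapped in both. No annotated gene overlapped Ly6e, and the only gene overlapping any member, Gm28068 at Ly6a, had no count.

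**Figure D3:**
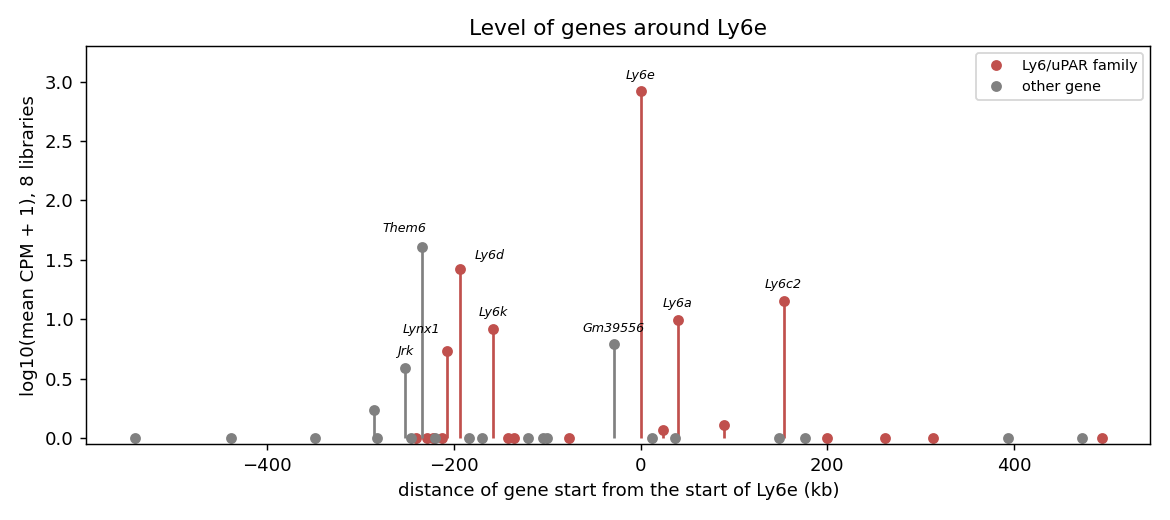
Mean level of each annotated gene with a row within 500 kb of Ly6e over the 8 libraries, as log10 of mean CPM + 1. The horizontal axis is the distance of its start from the start of Ly6e in kb, where start means the lower coordinate on either strand. Genes of the Ly6/uPAR list are in red and all others in grey, which take in Ly6g6g and Ly6a2, both at 0. Ly6e, at a mean of 825 CPM, stands far above Ly6d at 25.3, Ly6c2 at 13.3 and Ly6a at 8.91 CPM, and most genes of the cluster are at 0.

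The profile of Ly6e over the 8 libraries was compared with those of 3543 other tested genes with a mean of at least 50 CPM. The measure was the root mean square difference of log2 CPM profiles, each centred on its own mean. The most similar was Arl4c, a small GTPase and LXR target, at a difference of 0.10, with 1076 ± 57.4 CPM with RGX-104 and 664 ± 60.1 CPM with DMSO. It was followed by the kinase gene Mapkapk2 (0.13), the sphingosine phosphate receptor gene S1pr4 (0.13), the nuclear body gene Sp110 (0.14) and the myosin gene Myo9b (0.15). Of these only Arl4c was called, and the other 4 had log2 fold changes of 0.44 to 0.58 that did not pass. In each of the 5 genes the RGX-104 libraries lay above the DMSO libraries, which the choice by likeness to Ly6e brings with it. No other member reached 50 CPM, so this comparison was made for Ly6e alone.

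**Figure D4:**
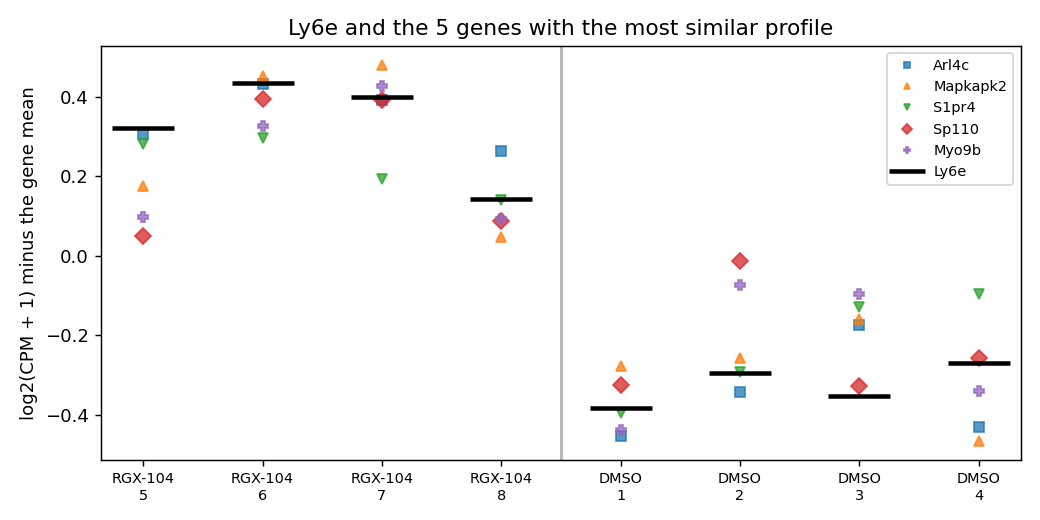
Centred log2(CPM + 1) of Ly6e (black bars) and of the 5 genes with the most similar profile (coloured symbols) in each library, RGX-104 left of the grey line and DMSO right of it. Arl4c lies closest to Ly6e, with a root mean square difference of 0.10, and Myo9b is the farthest of the 5 at 0.15.

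Ly6e and Ly6a are induced by interferon in many cells, so a list of 32 other interferon response genes was set beside them. Of 25 tested, none was called in either direction, where 0.11% of all tested genes were called. The fitted change was positive for 16 and negative for 9 of them, and its median was 0.07, against 0.01 over all tested genes. At an unadjusted p under 0.05 edgeR had 1 of the 25, against 3.81% of all tested genes. It was Isg15, a ubiquitin-like modifier named after its values were seen, and DESeq2 and limma-voom called 0 of the list. Isg15 had 30.0, 23.1, 14.4 and 22.4 CPM in RGX-104 replicates 5 to 8, against 12.0, 0.592, 5.46 and 3.68 CPM in DMSO replicates 1 to 4, without overlap (log2 fold change 2.03 ± 0.89 SE, edgeR adjusted p = 1.00). It was 1 of 25 with every RGX-104 library higher, against 2.2% of all tested genes and 1.46% of those with a mean of 5 to 20 CPM. In DMSO replicates 2 to 4, where 1 apparent molecule was worth 5.48, 4.72 and 3.16 CPM, its level was about 1 molecule or less. The most abundant tested members were Samhd1, a nucleotide hydrolase, at 459 ± 88.2 CPM with RGX-104 and 521 ± 74.3 CPM with DMSO, and the transcription factor Irf1 at 323 ± 55.7 CPM with RGX-104 and 318 ± 82.8 CPM with DMSO. The summed level of the list was 1815 to 2251 CPM with RGX-104 and 1862 to 2114 CPM with DMSO.

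Other GPI-anchored proteins of T cells were set beside the Ly6 genes. Of 14 such genes 9 were tested and none was called by edgeR, where 0.11% of all tested genes were called. Their median log2 fold change was -0.03, against 0.01 over all tested genes, with 4 positive and 5 negative. By edgeR 0 of them had an unadjusted p under 0.05, against 3.81% of all tested genes, and 0 were called by DESeq2 or by limma-voom. With 9 genes, counts of 0 cannot be told apart from these shares. Cd52, the small antigen bound by alemtuzumab in humans, had 1178 ± 51.7 CPM with RGX-104 and 1293 ± 75.8 CPM with DMSO (log2 fold change -0.15 ± 0.09 SE), and Thy1, the classical T cell antigen, had 834 ± 62.7 CPM with RGX-104 and 816 ± 29.0 CPM with DMSO (0.02 ± 0.10). These genes are about as abundant as Ly6e, and their standard errors are like that of Ly6e, 0.11.

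Genes that build and remodel the GPI anchor were not called by edgeR either, where it called 0.11% of all tested genes. Of 31 listed genes 28 were tested. The fitted change was positive for 17 and negative for 11, and its median was 0.13, where 50.9% of all tested genes had a positive change. An unadjusted p under 0.05 was found for 2 of the 28, against 3.81% of all tested genes. DESeq2, which called 33 of all tested genes, called both of these, named here after their values were seen, while limma-voom called 0. Pigf, which acts in the step that adds ethanolamine phosphate to the anchor, had 7.95, 5.30, 12.0 and 9.92 CPM in RGX-104 replicates 5 to 8, against 0, 0.0538, 0 and 0 CPM in DMSO replicates 1 to 4 (log2 fold change 8.82 ± 2.41 SE, edgeR adjusted p = 0.872, DESeq2 adjusted p = 1.70e-04). With 1 apparent molecule worth 2.90 to 3.99 CPM with RGX-104 and 3.16 to 5.48 CPM with DMSO, Pigf stood at a few molecules or fewer in every library. Pgap2, which acts in remodelling of the anchor's lipid, had 17.1, 29.0, 23.3 and 21.6 CPM in RGX-104 replicates 5 to 8, against 55.3, 60.1, 44.4 and 47.0 CPM in DMSO replicates 1 to 4 (log2 fold change -1.20 ± 0.37 SE, edgeR adjusted p = 1.00, DESeq2 adjusted p = 0.0296). The most abundant tested genes of the list were Dpm3, a subunit of the mannose donor enzyme, at 248 ± 37.4 CPM with RGX-104 and 259 ± 45.7 CPM with DMSO, and the mannosyltransferase Pigm at 86.2 ± 3.82 CPM with RGX-104 and 109 ± 50.9 CPM with DMSO.

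**Figure D5:**
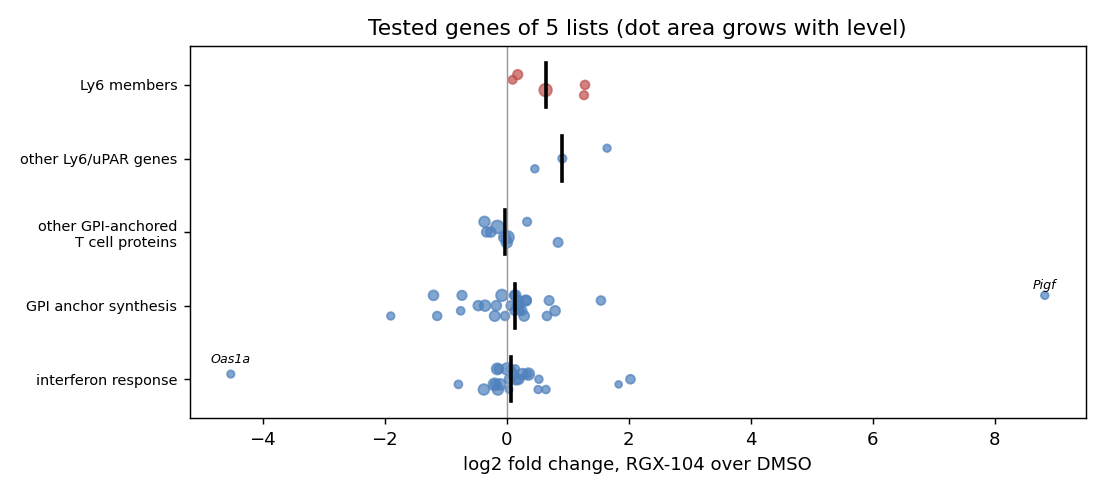
Log2 fold change of RGX-104 over DMSO for each tested gene of 5 lists, with dot area growing with the mean level and a black bar at each list's median. The medians of the interferon, GPI anchor synthesis and other GPI-anchored lists are 0.07, 0.13 and -0.03, and the far points Pigf and Oas1a are low genes that edgeR did not call.

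The cells were checked against markers because Ly-6C and Ly-6A also mark memory T cells, monocytes and endothelium. The 13 CD8 T cell identity genes summed to 4391 to 4891 CPM with RGX-104 and 4227 to 4436 CPM with DMSO, and 11 naive T cell genes summed to 6100 to 6686 CPM with RGX-104 and 6171 to 7001 CPM with DMSO. The 20 memory and effector genes summed to 1135 to 1287 CPM with RGX-104 and 1129 to 1411 CPM with DMSO. Most of that sum came from Il2rb, Itga4 and Nkg7, at means of 381, 372 and 317 CPM over all libraries. Id2, Ccl5, Prf1 and Gzmb were also present, at means of 81.1, 22.9, 21.2 and 12.1 CPM. In all libraries 7 of the list were at 0, among them Ifng, Tbx21 and Klrg1, which does not show that they were unexpressed. Nkg7, Id2, Ccl5, Prf1 and Gzmb were named after their values were seen. The 11 monocyte and macrophage markers summed to 12.4 to 27.3 CPM with RGX-104 and 11.2 to 30.9 CPM with DMSO, with Fcgr1, Fcgr3 and Ms4a7 at 0, and the sum had the same mean in both groups, 18.4 CPM with RGX-104 and 18.4 CPM with DMSO. Endothelial and stromal markers summed to 68.6 to 122 CPM with RGX-104 and 63.8 to 124 CPM with DMSO, nearly all of it Pecam1, which T cells also express, while Cdh5, Kdr, Tek and Vwf were at 0. Natural killer and dendritic cell markers reached at most 1.01 and 6.24 CPM with RGX-104 and 0 and 7.11 CPM with DMSO, and neutrophil markers lay between 1.78 and 14.7 CPM with RGX-104 and between 0 and 36.7 CPM with DMSO.

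Tested genes of these marker lists numbered 11 of the naive, 10 of the memory and effector, 11 of the CD8 identity, 10 of the B cell, 3 of the monocyte and 1 of the endothelial genes. By edgeR 0 of them were called, against 0.11% of all tested genes. An unadjusted p under 0.05 was found for 3 of the naive and 2 of the CD8 identity genes, against 3.81% of all tested genes. The fitted change was positive for 4 and negative for 7 of the naive genes, and positive for 7 and negative for 4 of the CD8 identity genes. DESeq2 called 1, Lef1, and limma-voom called 0. The coreceptor chain Cd8a had 739 ± 23.1 CPM with RGX-104 and 668 ± 33.8 CPM with DMSO, and Cd8b1 had 716 ± 60.3 CPM with RGX-104 and 719 ± 30.0 CPM with DMSO, while Cd2 and Cd28 were listed at 0 in every library. The transcription factor genes Foxp1 and Klf2 led the naive list, Foxp1 with 1157 ± 57.6 CPM with RGX-104 and 1161 ± 117 CPM with DMSO, and Klf2 with 862 ± 56.9 CPM with RGX-104 and 815 ± 61.6 CPM with DMSO. Groups did not overlap for 3 of the 11 naive genes, all lower with RGX-104, against 1.35% of all tested genes. They were the transcription factor Lef1, the interleukin receptor Il7r and the sphingosine phosphate receptor S1pr1, named after their values were seen, with log2 fold changes of -0.59, -0.34 and -0.34 and edgeR adjusted p of 0.348, 1.00 and 1.00. The DESeq2 adjusted p of Lef1 was 0.000248. Groups also did not overlap for 2 of the 11 CD8 identity genes, Cd8a and the signalling adaptor Lat, both higher in every RGX-104 library, against 2.2% of all tested genes. Lat, likewise named after its values were seen, had 426 ± 21.9 CPM with RGX-104 and 323 ± 53.1 CPM with DMSO (edgeR adjusted p = 1.00). The 2 CD8 identity genes with an unadjusted p under 0.05 were Lat and Cd5, not Cd8a (edgeR unadjusted p = 0.236). Cd5, also named after its values were seen, was lower with RGX-104, at 76.6 ± 19.5 CPM against 118 ± 29.6 CPM with DMSO. Its log2 fold change was -0.63 ± 0.25 (SE, edgeR unadjusted p = 0.0195), and its groups overlapped. In the memory and effector list the cytokine receptor Il2rb had 396 ± 69.4 CPM with RGX-104 and 366 ± 77.9 CPM with DMSO, and the integrin Itga4 had 351 ± 38.2 CPM with RGX-104 and 393 ± 22.2 CPM with DMSO. The B cell transcription factor gene Pax5 had 33.8 ± 11.6 CPM with RGX-104 and 35.5 ± 21.2 CPM with DMSO. The phagocyte genes Cd68 and Lyz2 had 6.87 ± 2.10 and 3.13 ± 4.13 CPM with RGX-104 and 6.99 ± 6.80 and 7.45 ± 6.81 CPM with DMSO. The part of other cells or of a shift within the naive cells in the Ly6 values was not tested.

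The DMSO libraries with the fewest genes detected, replicates 1 to 3, held both the lowest and the highest DMSO values of Ly6a, 0.493 CPM in replicate 3 and 9.14 CPM in replicate 2, and of Ly6c2, 0 CPM in replicate 1 and 16.6 CPM in replicate 3. Replicates 1 to 3 are all DMSO libraries but replicate 4, and a link of these values to detection was not tested. The number of detected genes was nearly tied to treatment. It was 9772 to 10194 in DMSO replicates 1 to 3 and 10442 to 10990 with RGX-104, with only DMSO replicate 4 (10908) in that range. A fit with this covariate therefore parts treatment from detection mainly by that library. When the fit held the number of detected genes as a covariate, the log2 fold changes were 0.62 for Ly6e, 1.77 for Ly6a, 0.99 for Ly6c2, 0.32 for Ly6d and 0.07 for Ly6k. Against DMSO replicate 4 alone they were 0.56, 1.59, 1.17, 0.45 and 0.48 in the same order, in a fit where the median of all tested genes was 0.13. No member beside Ly6e was called in either fit.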

How the data were processed

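The deposited table gives unnormalised read counts, whole numbers, with gene symbols in rows and libraries in columns, per the file headers. The libraries came from a QuantSeq 3' mRNA kit, per the labels' protocols. The submitters' processing notes list STAR 2.7.8a, R 4.1.0, DESeq2 1.4 and GRCm38. Which counting tool, annotation and strand setting served, and whether molecular identifiers were read, is not given in the sources used here.

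The test was edgeR's quasi-likelihood F test (edgeR 4.0.16, R 4.3.3) after TMM scaling, with a model of treatment alone. filterByExpr with a minimum count of 10 left 10037 genes, p-values were adjusted by Benjamini-Hochberg over all of them, and called means an adjusted p under 0.05. Standard errors were approximated as |log2 fold change| over the root of F. CPM was taken on the total count of a library, and log2 ratios used a pseudocount of 1 CPM. Apparent molecules are the number that gives, under Poisson sampling, the zeros seen in a library among genes of 2 to 20 CPM in the other libraries. Limits for a count of 0 use 3 counts per library.

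Alternatives were DESeq2 1.42.0, limma-voom (limma 3.58.1), DESeq2 size factors, no filter, each library left out, genes detected as a covariate, DMSO replicate 4 alone, and Ly6c1 and Ly6c2 summed. The fit was tested on simulated data. Positions come from the RefSeq gene table of GRCm38.p6, where all 43 family symbols matched, and sequences from GENCODE M21.

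The members, lists and tests were chosen with earlier results of these data known. Named genes are the 6 members, family genes of at least 5 CPM, the called genes and the 2 most abundant tested genes of each other list, and the 5 profiles nearest to Ly6e. Other named genes were chosen after their values were seen. Of the genes the rule names in the marker lists, 1 is not reported here.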

Additional observations from a re-analysis of the deposited data

Results flagged for a closer look

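In 38 groups of 4 libraries, for family genes with any count and for sums of cell type markers, 8 contained 1 library that stood apart. The usual rate of about 1 in 20 by chance does not hold for such data, because a single library with counts beside others at 0 always stands apart. All are low features whose other libraries are at or near 0. For Ly6c1 these were RGX-104 replicate 7, with 0.370 CPM, and DMSO replicate 4, with 1.90 CPM, with 0 in the other libraries of each group. In RGX-104 replicate 8, Ly6i stood at 1.43 CPM, Lypd1 at 5.64 CPM and the natural killer cell markers at 1.01 CPM, with 0 in the other RGX-104 libraries. Cd59a, an inhibitor of the complement attack complex, stood at 8.79 CPM in DMSO replicate 1 and at 0 in the other DMSO libraries. In DMSO replicate 4 the neutrophil markers summed to 36.7 CPM, with 0 in the other DMSO libraries, and the dendritic cell markers to 7.11 CPM, with 0 to 0.0411 CPM in the others.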

How the results depend on the processing

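The count of all genes called was 11, and it was 33 with DESeq2 (20 higher and 13 lower, against 10 and 1) and 7 with genes detected as a covariate; it ranged from 8 to 14 with 1 library left out. No member beside Ly6e was called in any alternative. In the lists on the wider family, GPI anchors and interferon, 0 genes were called, and DESeq2 called 2, Pigf and Pgap2. The cause of these differences was not tested. Ly6e stayed between 0.56 and 0.69 on the log2 scale over 14 alternatives. Ly6a lay between 0.88, without DMSO replicate 3, and 2.08, with limma-voom, and Ly6c2 between 0.86, without DMSO replicate 1, and 3.06, with limma-voom. The sign of Ly6d turned without DMSO replicate 1 (-0.0015) and without RGX-104 replicate 7 (-0.11), and with 1 library left out Ly6d reached at most 0.50; that of Ly6k turned without DMSO replicate 1 (-0.32), DMSO replicate 4 (-0.01) and RGX-104 replicate 7 (-0.02), with 0.72 as its highest such value and 1.73 with limma-voom. With 1 library left out, the log2 ratio of Ly6e to Ly6a differed between the groups by -1.12 to -0.21, that to Ly6c2 by -1.67 to -0.30, that to Ly6d by 0.22 to 0.70 and that to Ly6k by -0.48 to 0.83; these and the list counts under alternatives were added after seeing the data. No paired analysis was made, because the labels do not say whether any RGX-104 library is paired with a DMSO library. Every member but Ly6e had few apparent molecules per library, at most 13.2, for Ly6d in RGX-104 replicate 7. The part of this in the spread of the members was not tested. The lone library in the fit against DMSO replicate 4 is assumed to vary like the RGX-104 libraries.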
